A study of Homo sapiens with 3 samples.

Results

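Caco-2 and HT29, a pair of human colorectal cancer cell lines, were grown together on Transwell membranes, and the RNA of their cells was sequenced cell by cell with the 10x Genomics assay, in which molecules are counted by unique molecular identifiers (UMIs). The cells described here were chosen by their own measured RNA and are those that could be placed on the HT29 side or on the Caco-2 side of this co-culture by the levels of 2 gene panels. Barcodes with at least 1500 UMIs, at least 700 genes and at most 20% mitochondrial UMIs were kept. A kept cell was put on the HT29 side when at least 0.1% of its UMIs fell on LYZ, KRT20, LCN2, CD24, CD44, CST6, TCN1 and BMP4 together and under 0.5% on APOA1 and APOC3. It was put on the Caco-2 side when under 0.1% fell on the 8 genes and at least 0.5% on APOA1 and APOC3. Of 19144 barcodes in 3 libraries, 15560 were kept, and 2583 of them lay on the HT29 side and 7803 on the Caco-2 side. The 10 panel genes chose the cells and were left out of all other results.

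The 3 libraries were 2 untreated controls and 1 co-culture that received lipopolysaccharide (LPS) at 1 ng/ml from day 22 for 24 h, and all were harvested on day 23. Caco-2 cells of passage 8 and HT29 cells of passage 13 had been seeded at 9 parts to 1 in each of them. Each sum of UMIs over a side and library is 1 measurement, so a comparison of the sides rests on 3 pairs. Its p-values weigh a difference of the sides against how that difference varied from pair to pair, estimated in part from all genes together. They do not measure the spread of a gene by itself. The lone LPS library leaves any difference between LPS and control without a replicate. The summed UMIs per side ranged from 3637059 to 4462599 for HT29 and from 9887492 to 20455532 for Caco-2. Between 9 and 11 barcodes were shared by each pair of libraries, and none of them carried identical counts.

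Both lines come from the large bowel but differ in what they become in culture. Caco-2 cells that stay confluent build a brush border, pump nutrients and assemble lipoproteins, and they keep genes of the fetal gut and liver. HT29 cells polarize less in standard culture and can take up a mucus-secreting fate. The co-culture is used as a model of an intestinal lining with absorptive and mucus-making cells.

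The HT29 side held 14.1% of the kept cells in control 1 (exact binomial 95% interval 13.2 to 15.1%), 19.1% in control 2 (18.0 to 20.1%) and 16.6% in the LPS library (15.5 to 17.6%). The Caco-2 side held 60.6%, 47.0% and 43.0% in the same order. Cells past neither limit made up 23.6%, 32.4% and 38.9%, in all 4931 cells, and 243 cells were past both. The intervals of the controls did not overlap on either side, so the controls differed by more than counting error. The intervals cover counting error only. Near the limits, 152 cells had an HT29 panel share of 0.08 to 0.1% and 147 a share of 0.1 to 0.12%, while 974 had an APOA1 and APOC3 share of 0.4 to 0.5% and 927 a share of 0.5 to 0.6%. The Caco-2 limit thus cut through a dense range of cells, and the HT29 limit through a sparse one. By choice, the median panel share on the HT29 side was 0.296%, 0.280% and 0.296% and that on the Caco-2 side 0, and the median APOA1 and APOC3 share was 0 on the HT29 side and 1.15%, 0.981% and 0.936% on the Caco-2 side. As part of the same rule, LYZ (lysozyme) was at 1315, 1238 and 1265 UMIs scaled to a total of 1000000 (CPM) on the HT29 side and at 30.8, 31.4 and 22.4 CPM on the Caco-2 side.

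Genes that differ between the lines when each is grown alone gave a check of the sides that the panels did not use. The study lists such genes for HT29 and for Caco-2 from bulk RNA sequencing of monocultures, not from these libraries. With the panel genes taken out, a median of 15.9%, 15.5% and 15.1% of a cell's UMIs fell on the HT29 list on the HT29 side, in control 1, control 2 and LPS. On the Caco-2 side the medians were 9.58%, 9.83% and 9.59%. The Caco-2 list took 27.4%, 27.6% and 28.4% of the UMIs on the HT29 side and 39.2%, 39.5% and 39.5% on the Caco-2 side. Cells past neither limit stood at 9.74%, 10.3% and 9.98% on the HT29 list, next to the Caco-2 side, and cells past both limits at 12.6%, 12.2% and 12.2%, between the sides. The sides overlapped at their edges. On the HT29 list, 11.3%, 12.6% and 11.8% of the HT29 side lay at or below the 95th percentile of the Caco-2 side. On the Caco-2 list, 8.50%, 9.89% and 16.7% of the HT29 side lay at or above the 5th percentile of the Caco-2 side, most in the LPS library. Of the 391 genes of the HT29 list that could be tested between the sides, 330 were higher on the HT29 side, and of 747 of the Caco-2 list 442 were lower there and 182 higher. Over all genes tested 35.4% were higher and 36.8% lower.

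**Figure D1:**
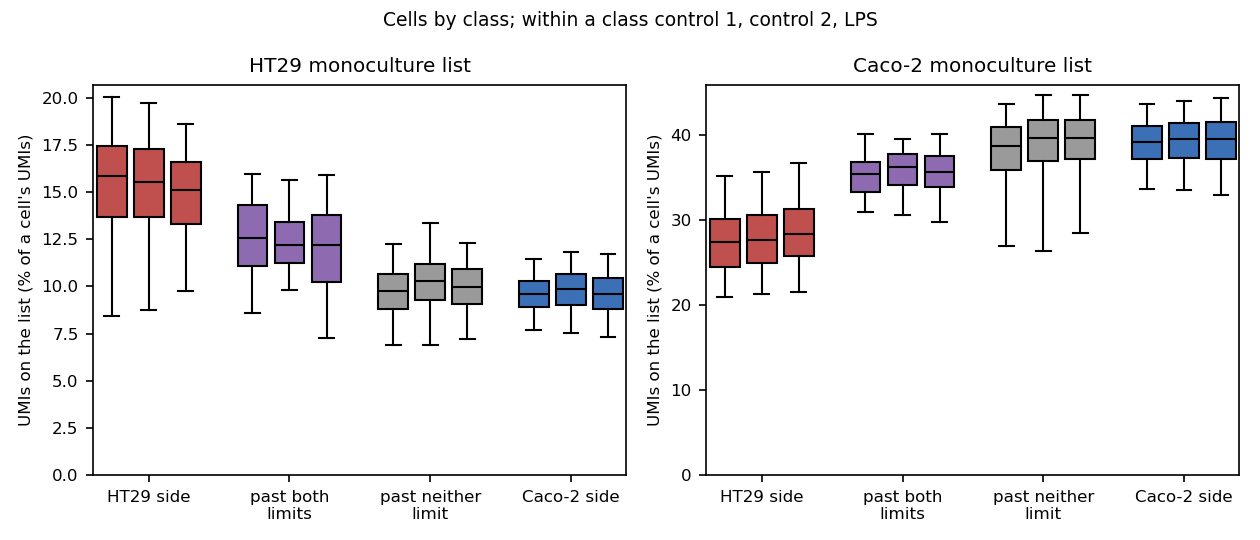
Share of a cell's UMIs on the genes that mark HT29 (left) and Caco-2 (right) in monoculture, in percent, for cells on the HT29 side, past both limits, past neither and on the Caco-2 side, with 1 box for each of control 1, control 2 and LPS in that order (median line, quartile box, whiskers from the 5th to the 95th percentile). The HT29 side sits near 15.5% on its own list and the Caco-2 side near 9.6%, and cells past neither limit lie with the Caco-2 side.

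The sides differed across most of the measured transcriptome. UMIs were summed per side and library, and the sums were compared with the quasi-likelihood test of edgeR with the library as a block and Benjamini-Hochberg adjustment. Of 13260 genes tested, 4688 were higher on the HT29 side (35.4%) and 4882 were lower there (36.8%) at an adjusted p under 0.05. A difference of at least 2-fold was also present for 2271 of the former (17.1% of genes tested) and 2413 of the latter (18.2%). Counts of list members below are to be read against these shares. Of the 9570 genes called, 9030 were called in the same direction, and 0 in the opposite one, when all kept cells were divided by the HT29 panel alone. That division leaves the cells of each side in place and adds those past both limits or neither, so it is not an independent test. CPM are given per side in the order control 1, control 2 and LPS, scaled to the total of each sum alone. Fold changes are the fitted values on the log2 scale, HT29 side minus Caco-2 side, with their standard error (SE). The fit also applied TMM factors, 1.03 to 1.07 for the HT29 sums and 0.927 to 0.984 for the Caco-2 sums. So a small fitted difference can have another sign than the CPM beside it. Scaling by library totals in place of TMM moved the median of all genes from -0.020 to 0.11, so differences of that size have no firm direction.

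Leading genes were taken among those with at least 100 CPM on the higher side in every library, so genes of lower level with larger differences are not among them. The 12 with the largest differences on the HT29 side were of several kinds, with secreted peptidases, an inhibitor and surface proteins among them. TM4SF4 (ENSG00000169903), a tetraspan-like membrane protein, was at 574, 801 and 851 CPM on the HT29 side and at 10.6, 20.8 and 14.2 CPM on the Caco-2 side. ANXA1 (ENSG00000135046), annexin A1, which binds phospholipids in the presence of calcium, was at 315, 325 and 297 CPM against 5.60, 7.37 and 5.32 CPM. KLK11 (ENSG00000167757), a secreted serine peptidase, was at 306, 271 and 255 CPM against 5.55, 8.77 and 5.22 CPM. In all 3 the lowest HT29 value was many times the highest Caco-2 value. The fitted differences were 5.49 ± 0.10, 5.55 ± 0.11 and 5.30 ± 0.12 (log2, SE, n = 3 pairs), with edgeR adjusted p of 1.36e-36, 5.73e-36 and 4.39e-34. KLK6, a neighbour of KLK11, was at 142, 104 and 104 CPM against 2.28, 3.26 and 2.25 CPM. TIMP1, an inhibitor of matrix metalloproteinases, was at 644, 554 and 488 CPM against 12.4, 21.0 and 11.6 CPM, and SNCG, gamma-synuclein, at 678, 526 and 453 CPM against 13.6, 17.9 and 12.5 CPM. The spread between libraries was small beside the gap between the sides. NUPR1, a small nuclear protein known from stress responses, varied more between libraries, at 101, 327 and 144 CPM against 1.14, 8.93 and 5.73 CPM. VSIG2, FAM3D, CD82, LCN15 and the antisense RNA IGFL2-AS1 completed the 12 genes, with log2 differences of 5.29, 5.17, 5.07, 4.97 and 5.06. The sources used here do not state how strand was handled in counting the antisense RNA IGFL2-AS1.

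The same rule on the Caco-2 side named 12 genes, among them plasma proteins and genes of lipoprotein assembly. APOA4 (ENSG00000110244), an apolipoprotein of chylomicrons, was at 2049, 1836 and 2388 CPM on the Caco-2 side and at 71.3, 66.3 and 71.2 CPM on the HT29 side, a log2 difference of -5.03 ± 0.080 (edgeR adjusted p = 1.17e-38). ALB (ENSG00000163631), serum albumin, was at 379.8, 439.9 and 541 CPM against 9.70, 21.6 and 8.28 CPM, with a log2 difference of -5.20 ± 0.14 (edgeR adjusted p = 4.26e-31). AFP (ENSG00000081051), alpha-fetoprotein, the fetal counterpart and chromosomal neighbour of albumin, was at 458, 354 and 577 CPM against 27.5, 21.4 and 16.6 CPM. Each was higher on the Caco-2 side in 3 of 3 libraries, which the rule asked for, with no overlap. MTTP, which loads lipid onto apolipoprotein B, was at 201, 178 and 223 CPM against 10.4, 8.32 and 12.4 CPM, and APOB itself at 611, 517 and 757 CPM against 33.7, 26.3 and 56.3 CPM. RBP2, the retinol carrier of enterocytes, was at 513, 264 and 263 CPM against 27.9, 10.8 and 17.1 CPM. MLN encodes motilin, a peptide that sets gut movement, and it was at 142, 140.0 and 155 CPM against 4.62, 5.17 and 6.35 CPM. ZG16 (a lectin of secretory granules), LGALS14 (a galectin known from placenta), OXT (the oxytocin precursor), VTN (vitronectin) and AHSG (fetuin-A) differed by -4.37, -4.29, -3.98, -3.95 and -3.88 on the log2 scale. OXT and the neighbouring vasopressin gene AVP lie on chromosome 20 of GRCh38, from 3071620 to 3072517 and from 3082556 to 3084724, and AVP, chosen after its value was seen, differed by -3.81 ± 0.13.

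**Figure D2:**
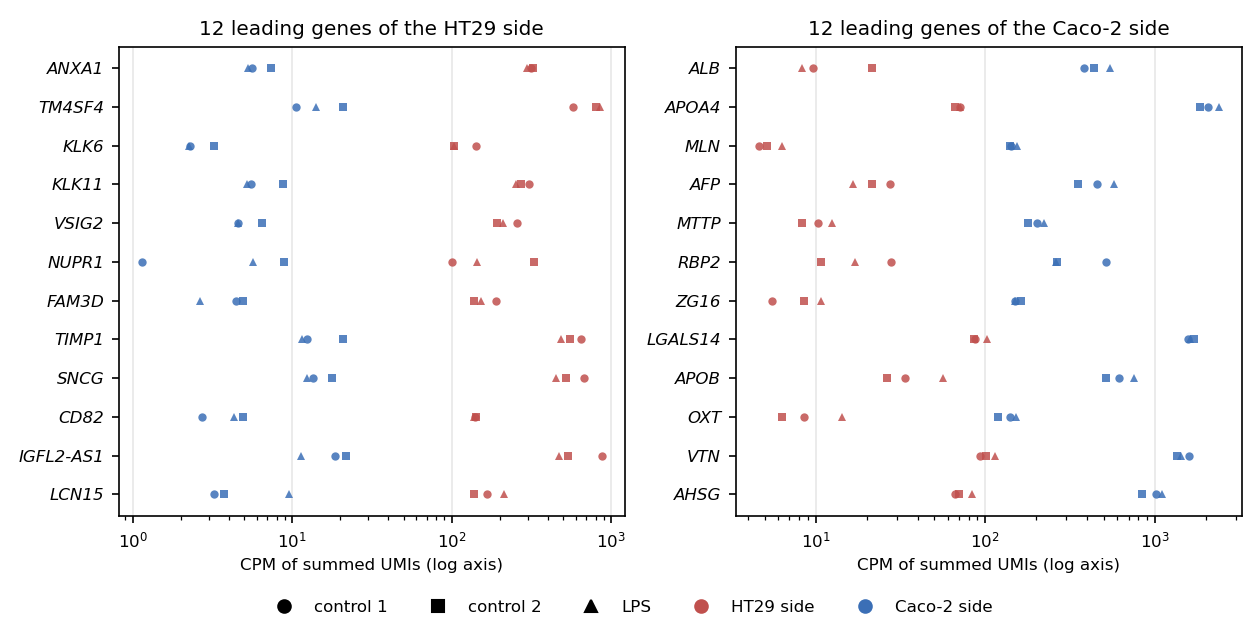
Levels of 12 leading genes of each side, in CPM of the summed UMIs on a log axis, for the HT29 side (red) and the Caco-2 side (blue) in control 1 (circles), control 2 (squares) and LPS (triangles). They had the largest differences among genes with at least 100 CPM on the higher side in every library. The rule also asked for the same direction in all 3 libraries, so that the sides lie apart follows in large part from the choice. ANXA1, for example, was at 297 to 325 CPM on the HT29 side and 5.32 to 7.37 CPM on the Caco-2 side.

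The size of these differences depended on the APOA1 and APOC3 limit more for the Caco-2 genes than for the HT29 genes. On the Caco-2 side, the 12 HT29 genes stood at 1.95% (ANXA1) to 3.02% (LCN15) of their HT29-side level, as means over libraries. On the HT29 side, the 12 Caco-2 genes stood at 2.998% (ALB) to 7.46% (AHSG) of their Caco-2-side level. In cells past neither limit the HT29 genes were at a median of 3.58% of the HT29-side level, and the Caco-2 genes at 26.9% of the Caco-2-side level, with APOA4 at 5.36% and AHSG at 49.5%. When all kept cells were divided by the HT29 panel alone, the log2 difference of ALB moved from -5.20 to -2.97, that of APOA4 from -5.03 to -2.39 and that of VTN from -3.95 to -2.34, while ANXA1 moved from 5.55 to 5.22 and TM4SF4 from 5.49 to 5.54. That division adds the cells past both limits to the HT29 side and those past neither to the Caco-2 side. In cells past both limits the Caco-2 genes stood at a median of 65.3% of their Caco-2-side level. The HT29 genes stood there at 58.0% of their HT29-side level. Cells past both limits had a median of 9423.5, 6009.5 and 5647 UMIs, more than either side in each library. Whether their barcodes held more than 1 cell was not tested. How much of the change came from each of these groups of cells was not tested. The limit also keeps Caco-2 cells high in APOA1 and APOC3, so the difference of a gene that varies with them includes that choice. ANXA1 had a UMI in 62.8%, 58.1% and 55.9% of HT29-side cells, at median depths of 5277.5, 3783 and 3710.5 UMIs, and in 2.33%, 3.12% and 1.62% of Caco-2-side cells, at 5532, 4334.5 and 3744 UMIs. The part of free RNA and of wrongly placed cells in the low levels was not tested.

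Promoters of 4 of these genes are shown because they hold the letters bound by HNF1, a factor of liver and gut, or by factors of the intestine, on both sides of the comparison. The sequences are the 160 bases before the gene start on GRCh38.p14 from RefSeq, 5′ to 3′ on the gene's strand, with matches to any motif searched in capitals. ALB lies at chr4:73404127-73404286 (plus strand), AFP at chr4:73436061-73436220 (plus), TM4SF4 at chr3:149474537-149474696 (plus) and RBP2 at chr3:139476517-139476676 (minus).
ALB: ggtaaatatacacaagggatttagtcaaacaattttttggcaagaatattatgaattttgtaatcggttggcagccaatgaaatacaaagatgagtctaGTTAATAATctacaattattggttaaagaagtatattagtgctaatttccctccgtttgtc
AFP: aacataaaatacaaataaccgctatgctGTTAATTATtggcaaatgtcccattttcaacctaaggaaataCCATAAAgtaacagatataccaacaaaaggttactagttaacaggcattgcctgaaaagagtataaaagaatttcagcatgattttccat
TM4SF4: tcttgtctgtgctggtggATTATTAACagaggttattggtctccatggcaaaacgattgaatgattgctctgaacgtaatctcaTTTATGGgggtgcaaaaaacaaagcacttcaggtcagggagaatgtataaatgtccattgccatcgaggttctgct
RBP2: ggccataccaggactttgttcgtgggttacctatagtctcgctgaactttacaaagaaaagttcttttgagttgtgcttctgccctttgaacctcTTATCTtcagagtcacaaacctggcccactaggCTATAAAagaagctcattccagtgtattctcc
The letters searched on both strands, from 250 bases before to 50 after the start, were GTTAATNAT for HNF1, CAAAGTCCA for HNF4, TGACTCA for AP-1, TTTATNG for CDX and AGATAA for GATA factors. ALB and AFP, both higher on the Caco-2 side, held the HNF1 letters at 61 and 132 bases before the start, and TM4SF4, higher on the HT29 side, held them at 142. In RBP2 the GATA letters began at 65 and the CDX letters at 32 bases before the start, where the latter run into a stretch of the kind known as a TATA box. Among genes at least 2-fold higher on the Caco-2 side, 1.03% of 1647 promoters held the HNF4 letters, against 0.311% of 1609 promoters of genes 2-fold higher on the HT29 side and 0.359% of all 27305 promoters. AP-1 letters stood in 3.58% and 5.41% of these sets and in 4.92% of all promoters. HNF1 letters stood in 1.03%, 0.684% and 0.751% in the same order. CDX letters stood in 7.23%, 6.28% and 10.1%, and GATA letters in 6.80%, 5.10% and 10.5%. Among genes tested, 0.451% held HNF1, 0.381% HNF4, 3.16% AP-1, 5.98% CDX and 5.03% GATA letters. Among genes at least 8-fold apart, a limit chosen after the values were seen, HNF4 letters stood in 2.81% of 249 promoters on the Caco-2 side and in 0 of 388 on the HT29 side, HNF1 letters in 2.81% and 0.773%, AP-1 letters in 6.43% and 8.76%, CDX letters in 12.4% and 8.25%, and GATA letters in 15.7% and 6.70%. These are shares of letters and not of bound sites. On the other strand the CDX letters read CNATAAA, which takes in CTATAAA, a stretch of the TATA box kind. The CDX match had that form in RBP2, and in ANXA1 and LCN15 at 32 and 33 bases before the start. How many of the CDX matches had that form was not counted.

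Absorptive genes lay mostly on the Caco-2 side. Of 23 brush border genes tested, 16 were lower and 4 higher on the HT29 side, with a median log2 difference of -1.98 beside -0.020 for all genes, or -1.17 with cells divided by the HT29 panel alone. Cubilin (CUBN), a receptor that takes up vitamin B12 bound to intrinsic factor, was at 33.9, 20.8 and 31.6 CPM on the Caco-2 side and 0.924, 0.900 and 1.38 CPM on the HT29 side. ANPEP, the aminopeptidase N of the brush border, was at 36.8, 35.6 and 42.0 CPM against 0.924, 2.92 and 3.59 CPM, and SI, sucrase-isomaltase, at 22.1, 17.5 and 18.8 CPM against 2.54, 1.80 and 2.76 CPM. Both hydrolases were low on the HT29 side in every library. DPP4, another brush border peptidase, differed by only -1.14 ± 0.088. The 4 genes of the list that were higher on the HT29 side were PLS1 and EZR, which bundle and anchor actin in microvilli, EPS8L3 and the peptidase ENPEP, with log2 differences of 1.29, 0.71, 0.57 and 1.56. So structural genes of the microvillus were found on both sides.

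**Figure D3:**
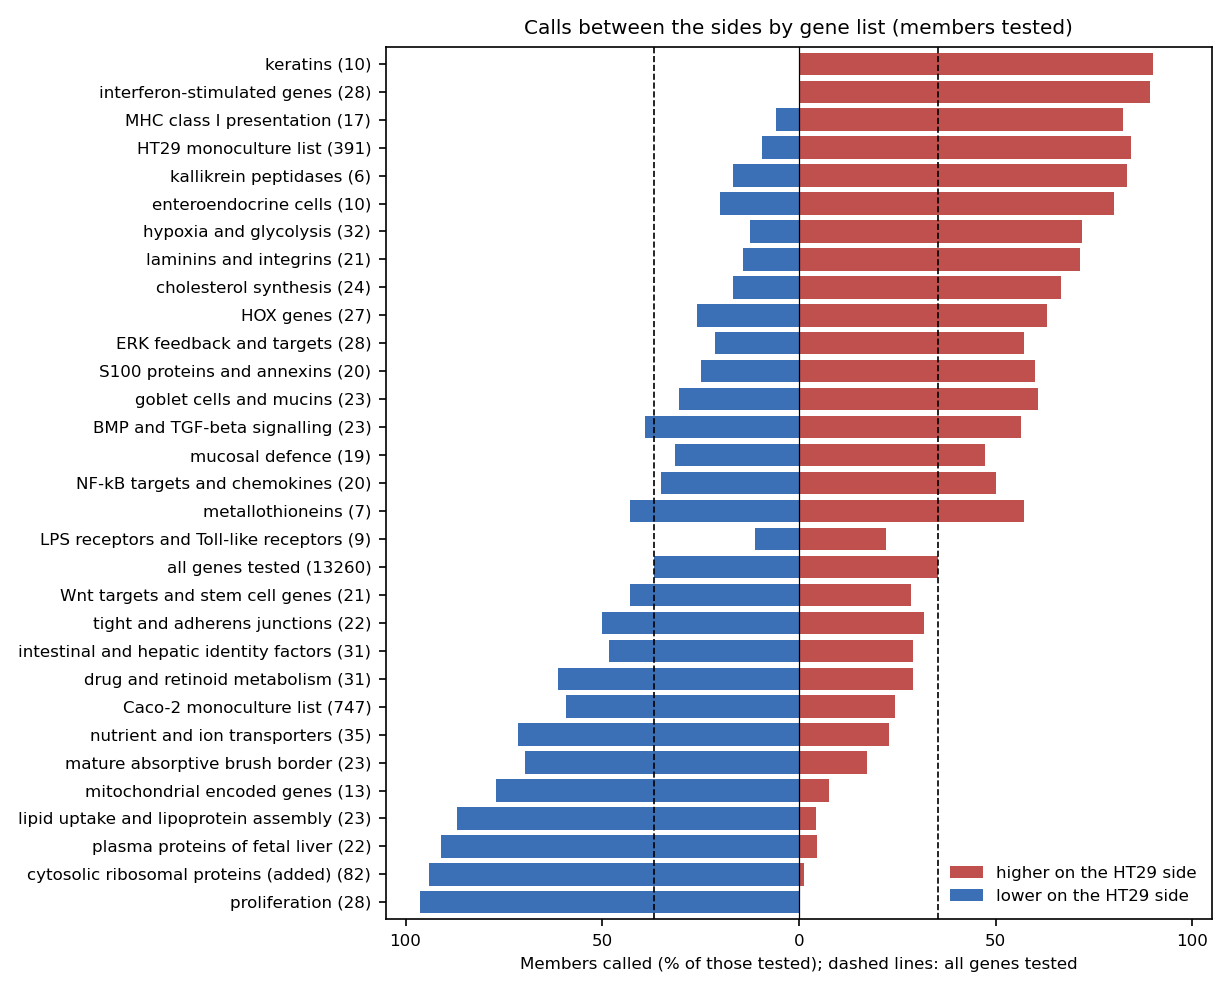
Share of the tested members of each gene list that were called higher (red, to the right) or lower (blue, to the left) on the HT29 side, in percent, with the number tested in parentheses and dashed lines at the shares over all 13260 genes. Keratins (9 of 10 higher) and interferon-stimulated genes (25 of 28) reach far to the right, and proliferation genes (27 of 28 lower) and plasma proteins (20 of 22) far to the left.

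Of 23 genes of lipid uptake and lipoprotein assembly, 20 were lower on the HT29 side and 1 was higher, with a median of -2.57, or -1.84 with cells divided by the HT29 panel alone. APOA2, an apolipoprotein outside the panel, was at 2092, 1743 and 1856 CPM on the Caco-2 side and 186, 155 and 184 CPM on the HT29 side. The exception was ACSL5, which activates fatty acids, at 55.6, 52.0 and 60.4 CPM on the HT29 side and 39.6, 37.0 and 47.1 CPM on the Caco-2 side, and it was no longer past the threshold with cells thinned to equal depth. The list is of the same pathway as APOA1 and APOC3, on which the cells were chosen, so its difference is a description. Of 35 transporters, 25 were lower and 8 higher. SLC2A5, the fructose transporter, was at 70.7, 96.9 and 139 CPM on the Caco-2 side and 2.31, 4.27 and 9.66 CPM on the HT29 side, and SLC26A3, the chloride and bicarbonate exchanger of the colon surface, at 64.2, 45.3 and 67.6 CPM against 3.46, 3.15 and 3.04 CPM. Glucose transporters split between the lines. SLC2A1, the common glucose transporter, was at 1053, 1307 and 1072 CPM on the HT29 side against 184, 205 and 261 CPM, while SLC2A3 was at 91.9, 125 and 143 CPM against 461, 525 and 731 CPM and SLC2A2 differed by -2.77 ± 0.50 at levels under 5 CPM. The water channel AQP1 (5.46 ± 0.15) and SLC12A2, the basolateral chloride importer of secreting cells, were higher on the HT29 side, the latter at 438, 291 and 467 CPM against 32.2, 26.3 and 30.4 CPM.

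Drug and retinoid metabolism was divided gene by gene, with 19 of 31 genes lower and 9 higher on the HT29 side. GSTA1, a glutathione transferase, was at 110.1, 67.8 and 67.7 CPM on the Caco-2 side and 4.85, 3.15 and 1.38 CPM on the HT29 side, though reads of the near-identical GSTA2 may be split between the pair. CYP3A5, a drug-oxidizing cytochrome P450, ran the other way, at 265, 201 and 192 CPM on the HT29 side and 5.65, 7.14 and 9.41 CPM on the Caco-2 side. CYP1B1 was likewise higher on the HT29 side, by 4.56 ± 0.20. CYP3A4 had no UMI on the Caco-2 side and 0.693 CPM in the HT29 side of control 1 alone, so it was not measurable at this depth.

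Plasma proteins of the fetal liver were the list with the largest median difference toward Caco-2, -3.77 over 22 genes, of which 20 were lower on the HT29 side. With cells divided by the HT29 panel alone the median was -2.27. The 3 fibrinogen genes FGA, FGB and FGG, which lie side by side on chromosome 4, differed by -4.51, -3.53 and -4.38, and FGG was at 134, 125 and 77.1 CPM on the Caco-2 side against 2.08, 7.87 and 8.00 CPM on the HT29 side. SERPINA1, the alpha-1 antitrypsin gene, kept a high level on both sides, at 2169.9, 2131 and 2227 CPM against 574, 509 and 652 CPM. Coagulation factor V (F5) was the gene in the other direction, at 45.5, 33.5 and 54.1 CPM on the HT29 side and 10.2, 7.84 and 13.0 CPM on the Caco-2 side. FGA had no UMI in the HT29 side of control 1, and its level there was under 1 CPM in the other libraries.

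By number of genes called, secretory genes leaned to the HT29 side without being confined to it. Of 23 goblet cell and mucin genes, 14 were higher and 7 lower, with a median of 1.90 that became 0.84 with the HT29 panel alone. The summed level of this list did not share that lean. It was 3103, 3008 and 2939.5 CPM on the HT29 side and 3523, 3072 and 2895 CPM on the Caco-2 side. MUC5AC, a gel-forming mucin of stomach and of mucus-secreting HT29 clones, was at 70.4, 75.8 and 109 CPM on the HT29 side and 1.93, 2.87 and 3.78 CPM on the Caco-2 side. MUC16, a membrane mucin, was at 22.4, 20.9 and 23.2 CPM against 0.446, 0.854 and 0.511 CPM. MUC2, the gel-forming mucin of the colon, was at 18.5, 6.07 and 5.80 CPM against 0.347, 1.55 and 3.68 CPM, with control 1 above the other HT29 values. Its difference of 2.58 ± 0.39 was past the threshold in edgeR but not in DESeq2, and it was 0.84 with cells divided by the HT29 panel alone. Membrane mucins differed in direction: MUC1 was higher on the HT29 side (3.14 ± 0.27), and MUC17 and MUC3A, mucins of the enterocyte surface, were lower (-3.16 ± 0.18 and -1.15 ± 0.17). The trefoil peptides TFF1, TFF2 and TFF3, secreted with mucus and named after their values were seen, were all lower on the HT29 side, by 2.15, 2.78 and 0.54 on the log2 scale. ZG16, also known from goblet cells, lay on the Caco-2 side as described above.

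The enteroendocrine list rested on few molecules. Of 25 genes, 10 were tested, 8 higher and 2 lower on the HT29 side. The list held 78.7 to 130.0 CPM in all on the HT29 side and 73.8 to 90.6 CPM on the Caco-2 side. It did not hold the motilin gene MLN described above, which was higher on the Caco-2 side (log2 difference -4.89). SCG2, a granin, was at 4.16, 5.40 and 4.42 CPM against 0.248, 0.310 and 0.102 CPM, and CHGA had 0, 3.15 and 0 CPM on the HT29 side. SCGN, secretagogin, and PCSK1N, an inhibitor of a hormone convertase, were the 2 lower genes, SCGN at 7.62, 7.87 and 5.24 CPM on the HT29 side and 50.2, 37.4 and 32.5 CPM on the Caco-2 side. With doubled limits 5 genes of the list were tested, and 2 were higher. Of 19 mucosal defence genes, 9 were higher and 6 lower, beside 35.4% and 36.8% over all genes tested. The complement protein C3 was at 3.93, 4.50 and 7.18 CPM on the HT29 side and 80.7, 56.7 and 68.8 CPM on the Caco-2 side. CEACAM7, an adhesion molecule of the colon surface, differed by 5.39 ± 0.13. PLA2G2A, a secreted phospholipase of Paneth cells, was lower on the HT29 side (-1.52 ± 0.15), and DEFB1 gave no call (0.031 ± 0.12). DEFA5, a Paneth cell defensin, was under 0.5 CPM in every sum.

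Kallikreins, keratins and calcium-binding proteins set the HT29 side apart. Of 15 kallikrein genes, 6 were tested, and KLK6, KLK8, KLK10, KLK11 and KLK12, which lie within a stretch of chromosome 19 from 50958631 to 51035230 of GRCh38, were all higher on the HT29 side. KLK10 was at 89.1, 74.0 and 85.6 CPM against 1.44, 2.33 and 1.43 CPM. KLK1, at the other end of the cluster (50819146 to 50823787), was lower on the HT29 side, at 60.3, 56.9 and 55.2 CPM against 326, 353 and 332 CPM. Of 10 keratins tested, 9 were higher on the HT29 side, with a median of 3.04, and KRT86 gave no call. The partners of simple epithelium, KRT8, KRT18 and KRT19, differed by 2.20, 2.12 and 1.45, and KRT18 was at 4198, 3174 and 3286 CPM against 799, 757 and 675 CPM. KRT17 and KRT80 had the highest fold changes of the list and were named for that. KRT17 was at 138, 112 and 91.6 CPM against 5.35, 3.03 and 3.07 CPM and KRT80 at 37.6, 33.1 and 29.3 CPM against 0.792, 1.32 and 0.614 CPM.

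Of 20 S100 proteins and annexins, 12 were higher and 5 lower on the HT29 side. S100A4, linked to cell movement, was at 5368, 2965 and 2951 CPM on the HT29 side and 249, 194 and 197 CPM on the Caco-2 side, and S100A2 at 161, 65.9 and 75.1 CPM against 3.96, 3.26 and 3.68 CPM. Control 1 was above the other HT29 values for both. S100G, the calcium carrier calbindin-D9k of absorptive cells, went the other way, at 1.39, 0.675 and 3.86 CPM against 63.5, 60.0 and 60.0 CPM. ANXA6, S100A14, ANXA4 and ANXA7 were the other lower genes, by 2.96, 0.52, 0.46 and 0.30 on the log2 scale.

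Attachment genes were mostly higher on the HT29 side, with 15 of 21 laminin and integrin genes higher and 3 lower. LAMA3 and LAMB3 encode chains of a laminin that anchors epithelia, and they differed by 3.31 ± 0.17 and 0.61 ± 0.087. The hemidesmosome collagen COL17A1 was at 121, 131 and 128 CPM on the HT29 side and 11.5, 8.46 and 15.5 CPM on the Caco-2 side. ITGA5, the fibronectin receptor subunit, LAMC1 and LAMB1 were lower on the HT29 side, by 3.03, 1.06 and 0.91. Of 22 junction genes, 7 were higher and 11 lower, beside 35.4% and 36.8% over all genes tested, with a median of -0.088. Claudins differed in direction: CLDN12 (2.19 ± 0.11) and CLDN3 (1.98 ± 0.074) were higher on the HT29 side, CLDN1 (-1.81 ± 0.11) and CLDN2 (-2.04 ± 0.46), the latter a pore-forming claudin, were lower. CDH17, liver-intestine cadherin, was at 57.0, 82.5 and 97.4 CPM on the HT29 side and 211, 232 and 298 CPM on the Caco-2 side. EPCAM, a surface marker of epithelial cells, was at 611, 682 and 611 CPM against 634, 681 and 676 CPM. Its fitted difference of -0.20 ± 0.067 lost its call under 4 alternatives, library totals among them.

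Most antigen presentation and interferon-stimulated genes were higher on the HT29 side. Of 17 genes of the MHC class I list, 14 were higher and 1, the peptide-trimming ERAP1, was lower. HLA-B was at 129, 233 and 189 CPM on the HT29 side and 15.8, 32.4 and 27.6 CPM on the Caco-2 side, and HLA-C differed by 1.10 ± 0.077. The HLA genes resemble each other and vary between lines, so reads may be split unevenly among them. Of 28 interferon-stimulated genes, 25 were higher on the HT29 side and 0 lower by edgeR or DESeq2 (by edgeR 1, IFITM1, at an unadjusted p under 0.05), with a median of 2.46. IFI27, a mitochondrial interferon-induced protein, was at 958, 1072 and 1368 CPM against 77.9, 112 and 79.6 CPM, and IFI6 at 362, 495 and 587 CPM against 18.1, 35.4 and 34.1 CPM. IFI44 was at 24.5, 25.2 and 41.1 CPM against 0.594, 0.466 and 0.511 CPM. For these genes the gap between the sides was present in both untreated libraries, and STAT2, IRF9 and IFITM1 gave no call.

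Of 31 factors of intestinal and hepatic identity tested, 9 were higher and 15 lower on the HT29 side, and the share called in either direction was near that over all genes. CDX2, a homeobox factor of intestinal fate, was at 13.2, 11.9 and 19.0 CPM on the HT29 side and 106, 113 and 118 CPM on the Caco-2 side, while its relative CDX1 was at 9.01, 8.32 and 6.35 CPM against 0.0991, 0.155 and 0.307 CPM. The pair thus stood in opposite directions in every library. The factor MAF was lower on the HT29 side (-3.53 ± 0.13). EHF, an ETS factor of secretory epithelia, was at 64.7, 46.1 and 50.5 CPM against 1.63, 1.24 and 0.716 CPM, and ONECUT2 was higher on the HT29 side as well (3.07 ± 0.17).

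HOX genes, which record position along the body axis, divided by cluster. Of 10 HOXA genes tested, 9 were higher and 1 lower on the HT29 side, and of 9 HOXB genes 7 were higher and 0 lower by edgeR or DESeq2 (0 by edgeR at an unadjusted p under 0.05). Of 8 HOXC genes, 6 were lower and 1 was higher. The summed level of HOXA was 131, 155 and 167 CPM on the HT29 side and 21.9, 29.0 and 27.2 CPM on the Caco-2 side. That of HOXC was 27.2, 35.8 and 40.0 CPM against 63.3, 64.5 and 72.0 CPM. HOXB6 was at 33.2, 33.7 and 29.8 CPM against 1.14, 1.16 and 1.74 CPM and HOXB3 at 30.9, 28.3 and 29.8 CPM against 1.19, 2.10 and 2.15 CPM. The 8 HOXD genes together stayed under 1 CPM on both sides.

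Wnt targets were called in both directions. Of 21 tested, 6 were higher and 9 lower on the HT29 side, not far from the 35.4% and 36.8% over all genes tested. AXIN2, a feedback inhibitor that reads out Wnt signalling, was at 48.0, 48.6 and 56.3 CPM on the HT29 side and 3.52, 3.96 and 3.48 CPM on the Caco-2 side, and RNF43, which removes Wnt receptors, at 204, 160.1 and 230.2 CPM against 42.1, 34.5 and 40.9 CPM. Other members had the other sign. ASCL2, a factor of intestinal stem cells, was at 35.1, 27.0 and 28.4 CPM against 71.7, 56.4 and 53.1 CPM, LGR5 differed by -1.68 ± 0.33 at under 6 CPM, and CCND1 by -1.60 ± 0.099 and DKK1 by -1.29 ± 0.12. Of 28 genes of the ERK pathway and its targets, 16 were higher and 6 lower. The matrix metalloproteinase MMP7 was at 30.7, 29.9 and 33.9 CPM against 0.743, 0.466 and 0.614 CPM and TGFA, a ligand of the EGF receptor, at 20.6, 22.9 and 21.3 CPM against 0.545, 0.776 and 0.614 CPM. Of the phosphatases that damp ERK, DUSP4 was higher (2.28 ± 0.22), and DUSP5 (-0.26 ± 0.13) and DUSP6 (0.14 ± 0.094) gave no call. EMP1 and the early gene EGR1 were lower on the HT29 side (-2.16 ± 0.12 and -0.72 ± 0.076).

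Of 23 BMP and TGF-beta genes, 13 were higher and 9 lower on the HT29 side. The ID genes, direct targets of BMP signalling, were split. ID1 was higher (0.81 ± 0.086), ID2 was at 48.0, 50.4 and 56.6 CPM on the HT29 side and 152, 187 and 214 CPM on the Caco-2 side, and ID3 was lower as well (-2.56 ± 0.28). The inhibitors SMAD6 and SKIL were higher (2.97 ± 0.16 and 2.25 ± 0.11) and TGFBI was lower (-1.74 ± 0.14). BMP4 itself is a panel gene and was left out. Of 20 NF-kappaB targets and chemokines, 10 were higher and 7 lower, beside 35.4% and 36.8% over all genes tested. CXCL1 was higher (2.56 ± 0.33), CXCL2 lower (-1.52 ± 0.14), and CXCL3 gave no call (-0.044 ± 0.31), although the 3 are close relatives. The cytokine IL32 was at 18.9, 30.8 and 45.8 CPM against 179, 166 and 183 CPM. CCL15 and NFKBIZ were higher (1.18 ± 0.11 and 0.97 ± 0.10). Receptors for LPS were scarce: TLR4 was under 1 CPM in every sum, and LY96, its partner, was under 1 CPM as well. Of 9 genes of that list tested, the kinase IRAK1 (1.26 ± 0.095) and the co-receptor CD14 (2.28 ± 0.23) were higher on the HT29 side, and TLR2 was lower (-3.45 ± 0.38).

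Of 32 hypoxia and glycolysis genes, 23 were higher and 4 lower on the HT29 side, with a median of 1.05. NDUFA4L2, a mitochondrial protein induced by low oxygen, was at 765, 956 and 788 CPM against 15.3, 35.8 and 27.6 CPM, and the carbonic anhydrase CA9 at 175, 209.8 and 165 CPM against 5.70, 6.75 and 9.00 CPM. NDRG1 was at 849, 1640.5 and 1121 CPM against 234, 229.6 and 307 CPM, with control 2 highest among the HT29 values. Among the lower genes were BNIP3, a mitophagy receptor (-3.50 ± 0.099), LDHB (-1.15 ± 0.072) and PYGL (-0.65 ± 0.12). Of 24 cholesterol synthesis genes, 16 were higher and 4 lower, most by small amounts, with a median of 0.34. SQLE, squalene epoxidase, stood out at 720.2, 1005 and 756 CPM against 134, 163 and 161 CPM, and the regulator SREBF1 differed by 2.02 ± 0.093. HMGCS1, with a wide spread, differed by 0.13 ± 0.081 (not called). HSD17B7, SC5D and IDI1 were among the lower genes, by 0.60, 0.32 and 0.19. Metallothioneins were mixed, with MT1E (2.34 ± 0.14), MT1X (2.10 ± 0.12), MT2A and MT3 higher and MT1F (-2.60 ± 0.13), MT1A and MT1G lower. These genes are close copies of each other, so the split of their reads is uncertain.

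Proliferation genes and ribosomal protein genes were lower on the HT29 side. Of 28 proliferation genes, 27 were lower on the HT29 side and 0 higher by edgeR or DESeq2 (0 by edgeR at an unadjusted p under 0.05), with a median of -1.61. TOP2A was at 75.0, 102 and 101 CPM on the HT29 side and 236, 294 and 248 CPM on the Caco-2 side, MKI67 at 35.1, 25.2 and 32.8 CPM against 69.0, 65.9 and 57.1 CPM and CDK1 at 26.3, 32.2 and 35.3 CPM against 148, 165 and 149 CPM. The list took a mean of 0.0416%, 0.0466% and 0.0474% of the UMIs of an HT29-side cell and 0.127%, 0.144% and 0.121% of those of a Caco-2-side cell, and more in cells past neither limit, 0.158%, 0.190% and 0.197%. In summed RNA, fewer dividing cells and less of these RNAs per dividing cell cannot be told apart. Ribosomal protein genes, a list chosen after the values were seen, took a median of 16.9%, 18.2% and 18.9% of a cell's UMIs on the HT29 side and 34.2%, 34.0% and 33.7% on the Caco-2 side. Of 82 such genes, 77 were lower and 1, RPL24, was higher on the HT29 side. A larger ribosomal share leaves fewer UMIs for all other genes. Cells thinned to 1500 UMIs showed a median of 801.5, 806 and 814 genes on the HT29 side and 718, 723 and 729 on the Caco-2 side. Whether the ribosomal share accounts for these gene counts was not tested. Of 13 mitochondrial genes, 10 were lower on the HT29 side, such as MT-ND1 (-0.92 ± 0.059), and MT-ND5 was higher (0.51 ± 0.063). Mitochondrial UMIs made up a median of 3.07%, 2.91% and 3.67% of an HT29-side cell and 3.85%, 4.52% and 4.83% of a Caco-2-side cell.

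Markers of cells that a co-culture of epithelial lines should lack were low. Of 14 blood and immune markers, 4 were tested and all 4 were lower on the HT29 side: AIF1 (21.4, 19.2 and 21.2 CPM on the Caco-2 side), CD3E, FCER1G and CD68. The list held 26.3 to 34.6 CPM in all on the HT29 side and 62.6 to 70.5 CPM on the Caco-2 side, most of it from CD68 and AIF1. CD68 differed by -0.30 ± 0.12 and was 0.12 higher with cells divided by the HT29 panel alone. The defining PTPRC, the pan-leukocyte surface phosphatase, was at or under 0.276 CPM in every sum, and MS4A1 and NKG7 had no UMI. Of 15 stromal and endothelial markers, 3 were tested, LUM higher (1.83 ± 0.15) and COL1A1 (-1.07 ± 0.20) and PECAM1 lower, and DCN had no UMI.

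Abundant genes with little difference in the reported fit were also found. The 10 genes with the highest mean level among those within 0.25 of no difference on the log2 scale were GAPDH, ATP5F1E, S100A10, PHGR1, TPI1, CST3, H3F3B, AGR2, ACTB and CFL1. GAPDH was at 5128, 5655 and 4611 CPM on the HT29 side and 4845, 4666 and 4317 CPM on the Caco-2 side, with a fitted difference of 0.021 (95% interval -0.086 to 0.13). ACTB differed by -0.035 (-0.16 to 0.090) and AGR2, a folding factor of mucus-secreting cells, by -0.065 (-0.19 to 0.061). All but H3F3B and CFL1 changed sign under at least 1 alternative of processing. Some differed more under other settings. With the HT29 panel alone PHGR1 differed by 0.68, CST3 by 0.43 and GAPDH by 0.24, the last outside its interval above, and all were past the threshold. Library totals gave 0.24 for CST3 and 0.15 for GAPDH, past the threshold as well. PHGR1 (0.21), CFL1 (0.21), H3F3B (-0.19) and TPI1 (-0.17) were past the threshold, and each lost the call under 3 or more alternatives.

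The differences were not spread evenly over the chromosomes. Median log2 differences over the tested genes of a chromosome ran from -0.54 for chromosome 10 (515 genes) and -0.41 for chromosome 14 (429 genes) to 0.31 for chromosome 13 (224 genes) and 0.36 for chromosome 15 (420 genes). On chromosome 10, 101 genes were higher and 307 lower on the HT29 side, and on chromosome 15, 219 were higher and 101 lower. Taken within each library and relative to all genes, chromosome 10 stood at -0.48, -0.47 and -0.47 and chromosome 15 at 0.35, 0.35 and 0.41. Chromosome 8 had a median of 0.045 that hid opposite ends. Its stretch from 0 to 20 Mb stood at -1.02 (43 genes) and that from 20 to 40 Mb at -0.85 (83 genes), while the stretch from 100 to 120 Mb stood at 1.03 (42 genes) and that from 120 to 140 Mb at 1.84 (48 genes), the highest of 153 stretches with at least 20 genes. MYC, which lies in the latter stretch and was chosen after its value was seen, gave no call, at 48.0, 36.9 and 44.4 CPM on the HT29 side and 43.6, 36.9 and 39.8 CPM on the Caco-2 side (-0.031 ± 0.10, adjusted p = 0.793, edgeR). In all, 18 stretches had a median of at least 0.5 and 14 one of at most -0.5. Both lines are known to be aneuploid, and the number of gene copies was not measured here.

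**Figure D4:**
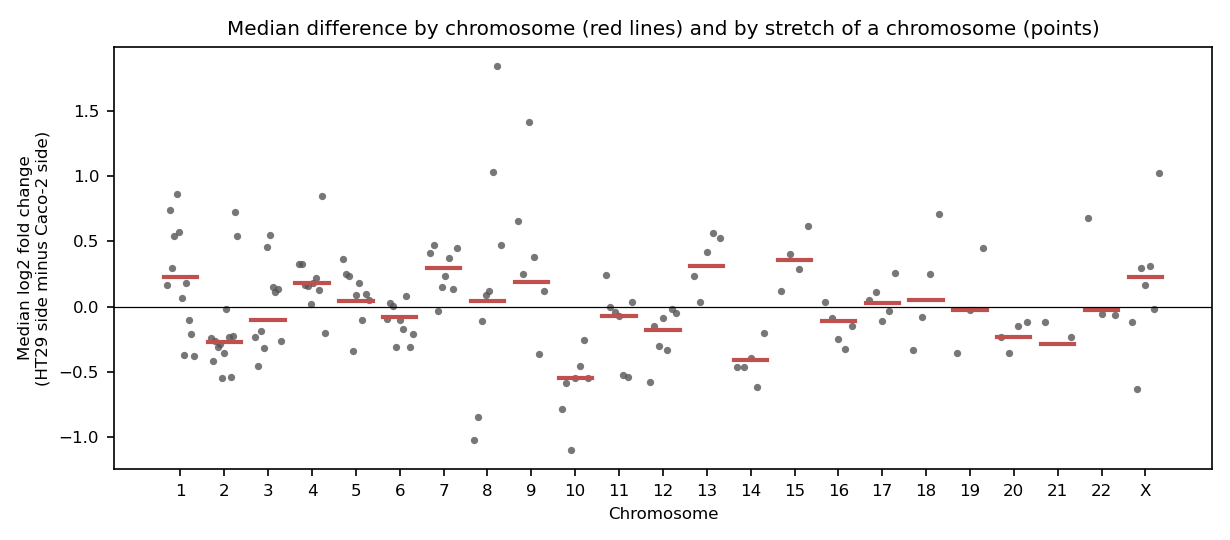
Median log2 fold change, HT29 side minus Caco-2 side, over the tested genes of each chromosome (red lines) and over stretches of 20 Mb with at least 20 tested genes, in their order along the chromosome (points). Chromosomes 10 and 14 lie below 0, and chromosome 8 runs from -1.02 at one end to 1.84 near the other.

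The effect of LPS on the contrast of the sides was asked with the product of side and treatment. The fit left 1 residual degree of freedom and took the LPS library to vary like the controls. Its estimate of spread came in part from all genes together. Of 14239 genes tested, 2 were past the threshold (0.014%), and 619 had an unadjusted p under 0.05. The unadjusted count was under 0.05 of the genes tested, the share looked for if no gene differed. Past the threshold were IFIT2 and IFIT3, which encode interferon-induced proteins with tetratricopeptide repeats. IFIT2 was at 6.47, 6.30 and 46.6 CPM on the HT29 side and 2.53, 2.48 and 3.17 CPM on the Caco-2 side, and IFIT3 at 10.4, 14.6 and 63.2 CPM against 2.92, 4.89 and 3.99 CPM. The LPS library stood above both controls on the HT29 side, and on the Caco-2 side the 3 values lay close together. The contrast of the sides was larger in the LPS library by 2.55 ± 0.39 for IFIT2 and 2.31 ± 0.34 for IFIT3 on the log2 scale (SE, adjusted p = 0.0241 for both, edgeR). DESeq2, other size factors, a fit without the library block and removal of likely doublets called 0 genes each, and division of the cells by the HT29 panel alone called 16. A UMI of IFIT2 was found in 45 of 854 HT29-side cells with LPS, against 11 of 718 and 18 of 1011 in the controls. The top 10 cells held 60.9% of the IFIT2 UMIs with LPS and 96.4% and 71.4% in the controls. With so few cells holding a UMI in the controls, their shares had to be high and do not compare the spread among cells. IFIT3 was found in 7.61% of the HT29-side cells with LPS and in 2.51% and 2.77% in the controls. On the Caco-2 side IFIT2 was found in 1.13%, 1.16% and 1.13% of cells. Of the 28 interferon-stimulated genes tested, 26 were above both controls on the HT29 side, where 38.6% of all genes were, and 16 on the Caco-2 side, where 45.5% of all genes were. ISG15, a ubiquitin-like protein made in response to interferon, was at 535, 509.6 and 918 CPM on the HT29 side and 89.8, 77.0 and 88.8 CPM on the Caco-2 side. The summed level of the list was 3009, 3244 and 4586 CPM on the HT29 side and 518, 585 and 560.4 CPM on the Caco-2 side.

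**Figure D5:**
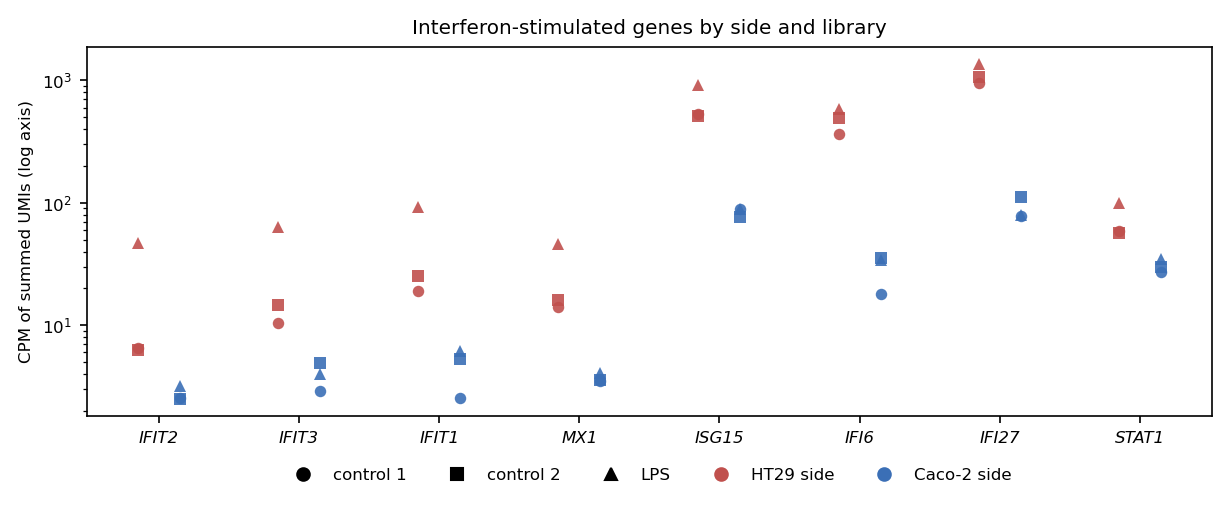
Levels of 8 interferon-stimulated genes, chosen after their values were seen, in CPM of the summed UMIs on a log axis, for the HT29 side (red) and the Caco-2 side (blue) in control 1 (circles), control 2 (squares) and LPS (triangles). The HT29 side lies above the Caco-2 side for each gene, and its LPS value is the highest of the 3, as for IFIT2 with 46.6 CPM against 6.47 and 6.30 CPM.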

How the data were processed

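RNA of 3 co-cultures was counted with the 10x Genomics assay. The authors aligned the reads to GRCh38 with Cell Ranger (3.1.0 in the deposited file headers) and deposited UMI counts per gene and barcode, not normalized. The lowest total of a deposited barcode was 500, 500 and 501 UMIs in the 3 libraries, so barcodes below about 500 were not in the matrices. The libraries held 33893707, 27934953 and 24185467 UMIs. Cells were placed on sides as described above, and panel genes were left out of totals and tests. UMIs were summed per side and library (6 sums). They were compared with edgeR 4.0.16 in R 4.3.3 (TMM, filterByExpr, quasi-likelihood test, library as a block, 2 residual degrees of freedom, adjusted p threshold 0.05). The block pairs the sides, since both come from the same library. To the residual degrees of freedom the quasi-likelihood test adds a prior on the spread that is shared across genes. The SE is the size of the log2 fold change divided by the root of F. Gene positions were those of GENCODE 44. Doublets called by Scrublet (scanpy 1.11.5) at its own threshold numbered 0, 0 and 1, so the caller had not worked; the main counts keep all cells, and an alternative left out the 6% of cells with the highest scores.

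Named genes were, on each side, the 12 with the largest fold change among called genes that met 2 conditions. These were at least 100 CPM on the higher side in every library and the same direction in all 3 libraries. Per list, up to 4 called members with at least 20 CPM (the 2 highest and the 2 lowest fold changes) and the first 3 of the list were named. So were the 10 most abundant genes within 0.25 of no change, and genes past the threshold in the test of LPS by side. AXIN2, EPCAM, DEFA5, MUC2, MUC5AC and TLR4 were named as well. Members named because a count was 5 or fewer or because no call was made, and FGB, FGG, SERPINA1, KLK8, KLK12, LY96, MS4A1, NKG7, DCN and ISG15, were chosen after their values were seen. The sides, the members and the gene lists were chosen with earlier results of these data known. The test was also run on simulated counts with far fewer changed genes than were called here, so that run does not vouch for the calls. Alternatives covered the size factors, the count filter, DESeq2 1.42.0, the block, each library left out, the limits, doublets and depth. Some members of the lists are not reported here.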

Additional observations from a re-analysis of the deposited data

Results flagged for a closer look

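The contrast between the HT29 side and the Caco-2 side differed between the LPS library and the controls for IFIT2 and IFIT3, whose products are induced by interferon. The contrast was larger with LPS by 2.55 on the log2 scale for IFIT2 and by 2.31 for IFIT3, in the test of the difference itself (edgeR, adjusted p = 0.0241 for both). DESeq2, RLE size factors, the fit without the block and removal of likely doublets called 0 genes. The result rests on 1 LPS library, and treatment and library cannot be told apart. In the HT29 side of that library 45 cells held an IFIT2 UMI and 65 cells an IFIT3 UMI.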

How the results depend on the processing

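Of 9570 calls between the sides, 9030 stood in the same direction with cells divided by the HT29 panel alone, and 0 in the opposite one. The cells of each side kept their place in that division, so the results are not independent. Leaving out each library in turn gave 4393 to 4489 genes higher and 4492 to 4626 lower on the HT29 side, and the fit without the replicate block gave 4444 and 4576. DESeq2 gave 3913 and 3812. Library totals gave 5381 and 4199, a split of 56.2% higher calls against 49.0%. The LPS test called 0 genes with DESeq2 (46 at an unadjusted p under 0.05), with RLE size factors (583), without the replicate block (375) and without likely doublets (644), and 16 with the HT29 panel alone (582). Each of these unadjusted counts was under 0.05 of the genes tested. Without a control the LPS test had no residual degree of freedom and was not run. The cause of these changes was not tested.

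Of 480 counts of list members called in a direction, 469 stayed within 1.5 times, while list medians moved more (goblet genes from 1.90 to 0.84 with the HT29 panel alone). Enteroendocrine genes higher on the HT29 side (8) numbered 13 with no count filter, 2 with doubled limits and 4 thinned to 1500 UMIs. NF-kappaB genes higher (10) numbered 6 when thinned. Toll-like receptor genes higher (2) numbered 4 under library totals and with the HT29 panel alone. Blood markers lower (4) numbered 2 when thinned. Stromal markers lower (2) numbered 4 with no filter or the HT29 panel alone, and 1 with doubled limits or thinned. The mean HT29 share of 16.6% became 12.5% with doubled limits, and the mean Caco-2 share of 50.2% became 81.9% with the HT29 panel alone, 26.8% with doubled and 63.1% with halved limits.

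Of 167 named genes tested, 14 changed sign under some setting, none of them more than 0.3 from no difference in the reported fit. Library totals gave 0.095 for ACTB, 0.066 for AGR2, 0.11 for ATP5F1E, 0.090 for CXCL3 and 0.035 for S100A10. The HT29 panel alone gave 0.093 for ACTB, 0.12 for ATP5F1E, 0.12 for CD68, 0.028 for DUSP5, 0.056 for S100A10 and 0.11 for TPI1. Doubled limits gave -0.14 for GAPDH, -0.0020 for CST3 and -0.13 for PHGR1. Halved limits gave 0.021 for ATP5F1E, 0.32 for CXCL3 and -0.044 for DEFB1. Thinning gave 0.023 for AGR2, -0.10 for DEFB1 and -0.0020 for GAPDH. No count filter gave -0.019 for DEFB1 and -0.028 for GAPDH. The panel without KRT20 and LCN2 gave 0.045 for CXCL3 and -0.0021 for GAPDH, higher minimums of UMIs and genes gave 0.0011 for ATP5F1E, and removal of doublets gave 0.056 for CXCL3. Leaving out each library in turn, values ranged from -0.066 to 0.017 for ATP5F1E, from -0.52 to 0.11 for CXCL3, from -0.22 to 0.20 for DEFB1, from -0.058 to 0.27 for DUSP6, from -0.046 to 0.067 for GAPDH and from -0.052 to 0.22 for HMGCS1.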
